A study of Homo sapiens with 8 samples.

Results

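The transcripts of 10 autophagy genes were followed in TeloHAEC, a telomerase-immortalised line of human aortic endothelial cells, with and without estradiol. They were SQSTM1, MAP1LC3B, GABARAP, GABARAPL1, GABARAPL2, BECN1, ULK1, ATG5, WIPI1 and TFEB, chosen by symbol, and 10 of these 10 symbols were found among the 34415 genes of the table. All 8 libraries came from wild-type Telo-HAEC grown with palmitic acid, a saturated fatty acid added as a model of the conditions of atherosclerosis, so by their titles the controls carried it too. The treatment field of the labels reads differently: it says Control for the control samples and PA-supplied for the estradiol samples. Groups follow the titles, which with the series' design text give palmitic acid to both. Control libraries (n = 4) had palmitic acid alone, and estradiol libraries (n = 4) had palmitic acid with estradiol, the main estrogen. No dose or exposure time is stated in the labels, no library without palmitic acid was analysed here, and the line is a single immortalised line. The labels do not say whether replicates were separate cultures, so each p-value speaks of the spread among these 8 libraries, which may be technical.

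Autophagy encloses cytoplasm in a double membrane, the autophagosome, and delivers it to the lysosome. A kinase complex around ULK1 starts the process, a lipid kinase complex with BECN1 marks the membrane, WIPI proteins read that mark, and a conjugation system that includes ATG5 attaches small Atg8 proteins (the LC3 and GABARAP families) to it. SQSTM1 (p62) ties ubiquitinated cargo to Atg8 proteins and is itself degraded, and TFEB is a transcription factor of lysosome and autophagy genes. In endothelial cells, fatty acid load and shear stress are known to act on this pathway. Transcript levels, which were measured here, do not measure the turnover of autophagosomes.

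Transcript levels are given as FPKM, fragments per kilobase of gene length scaled to each library's total, a scale on which genes can be compared. Recovered depth ran from 33421051 to 39899258 reads per library. Of the 10 endothelial markers, 9 had a mean of at least 1 FPKM (the exception was VWF), and their summed level was 465 to 617 FPKM across controls and 459.6 to 593 FPKM with estradiol. Of the markers of other cell types, PTPRC, CSF1R, LYZ and ITGAM (macrophage), MYH11, CNN1 and LMOD1 (smooth muscle), COL1A1, COL1A2, DCN and LUM (fibroblast) and EPCAM, CDH1 and KRT5 (epithelial) were under 0.1 FPKM. Others of the same lists had a mean of at least 1 FPKM: CD68 of the 6 macrophage markers, ACTA2, TAGLN and SMTN of the 6 smooth muscle markers, and KRT8, KRT18 and KRT19 of the 6 epithelial markers. The lists' summed levels over the control and then the estradiol libraries were 33.5 to 45.3 and 31.1 to 42.8 FPKM for macrophage, 24.1 to 36.5 and 24.0 to 35.6 FPKM for smooth muscle, and 79.9 to 124 and 81.6 to 110.4 FPKM for epithelial markers. In bulk RNA, fewer cells of a type and less RNA per cell cannot be told apart.

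Control replicate 3 and estradiol replicate 4 stood apart from the other 6 libraries. The first principal component, which held 68.7% of the variance, set them at 27.8 and 27.5 against -13.1 to -3.29. The labels name no batch. Over 10250 genes (genes are not independent replicates), the Spearman rank correlation between a library's deviation from the median of the 8 and the GC share of transcripts was -0.869 and -0.848 for these libraries, and -0.342 to 0.654 for the others. Results are therefore given with and without this pair, which has 1 library in each group.

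The transcripts of the 10 genes range from 38.8% (ATG5) to 64.2% (ULK1) G and C. The openings of 5 coding sequences are shown, including those of ATG5 and ULK1, the ends of that range. The GC content of an opening is not that of the transcript. Among the 5 openings it was lowest in ATG5 (41.1%) and highest in ULK1, with SQSTM1 at 66.7%. It was higher in GABARAP (55.6%) than in MAP1LC3B (51.1%), whereas their transcripts have 49.8% and 50.4%. Each is the first 90 coding bases, 5′ to 3′, of the gene's principal GENCODE 29 transcript on GRCh38, with G and C in capitals.
ULK1: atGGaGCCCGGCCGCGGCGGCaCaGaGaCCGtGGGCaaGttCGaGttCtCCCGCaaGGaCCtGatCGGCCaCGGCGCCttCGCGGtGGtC
SQSTM1: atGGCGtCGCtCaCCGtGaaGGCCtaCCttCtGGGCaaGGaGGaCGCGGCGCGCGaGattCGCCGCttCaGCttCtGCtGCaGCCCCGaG
GABARAP: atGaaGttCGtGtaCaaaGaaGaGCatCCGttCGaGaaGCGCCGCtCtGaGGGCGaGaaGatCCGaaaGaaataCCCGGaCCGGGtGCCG
MAP1LC3B: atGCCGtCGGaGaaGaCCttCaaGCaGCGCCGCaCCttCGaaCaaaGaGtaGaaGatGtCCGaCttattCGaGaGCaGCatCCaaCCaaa
ATG5: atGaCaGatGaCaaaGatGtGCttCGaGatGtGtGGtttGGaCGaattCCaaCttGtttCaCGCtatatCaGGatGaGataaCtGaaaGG
G and C make up 65.9% of the whole coding sequence of ULK1, 61.5% of SQSTM1, 48.9% of GABARAP, 47.1% of MAP1LC3B and 39.0% of ATG5.

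The question of the series was what estradiol does in these cells. For autophagy genes, no difference between estradiol and control was detected. By limma on log2(FPKM + 1), with Benjamini-Hochberg adjustment over the 10720 genes with a mean of at least 1 FPKM, 0 of the 10 genes passed an adjusted p under 0.05 (background 0% of all genes tested, 0 of 10720). The adjusted p was 0.999989 for each. At an unadjusted p under 0.05 there were 0 of the 10 by limma, against a background of 0.243% (26 genes), and 0 by limma-voom on recovered reads, which gave 22 genes in all. Control and estradiol values overlapped for 10 of 10 genes, where groups did not overlap for 0.532% of all genes. The median log2 fold change (estradiol minus control, of FPKM + 1) was 0.016 over the 10 genes and -0.00047 over all genes tested, with 7 of 10 values above 0 against 49.5% of all genes. The limits of the 95% intervals lay between 0.80-fold and 1.32-fold of FPKM + 1 for the 10 genes, and between 0.849-fold and 1.16-fold without the 2 libraries that stood apart. Other alternatives gave wider limits: up to 1.51-fold by limma-voom on recovered reads, up to 1.47-fold with a pseudocount of 0.1, and down to 0.744-fold without control replicate 4.

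**Figure D1:**
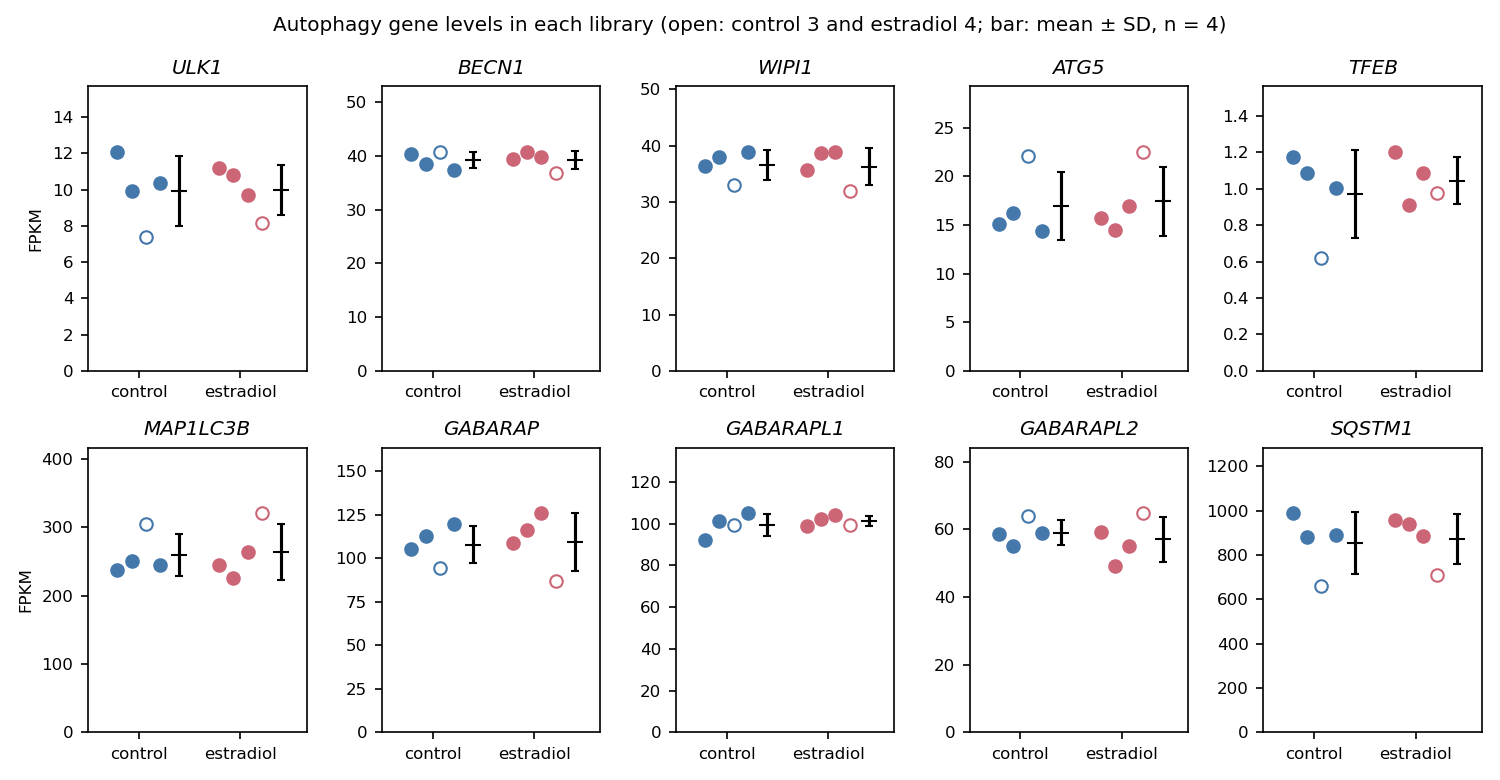
FPKM of each autophagy gene (vertical axes, from 0) in 4 control (blue) and 4 estradiol (red) libraries, 1 point per library, with the mean ± SD (n = 4) as a bar beside each group. Open points are control replicate 3 and estradiol replicate 4, which are the lowest of their group for SQSTM1, ULK1, GABARAP and WIPI1 and the highest of their group for MAP1LC3B, ATG5 and GABARAPL2.

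ULK1, the kinase that starts autophagosome formation, measured 12.1, 9.90, 7.40 and 10.3 FPKM in control replicates 1 to 4 and 11.2, 10.8, 9.72 and 8.16 FPKM in estradiol replicates 1 to 4. Control replicate 3 and estradiol replicate 4 were the lowest of the 8, and the groups overlapped. The means were 9.93 ± 1.93 and 9.97 ± 1.37 FPKM (SD, n = 4 each, control first), with a log2 fold change of 0.014 ± 0.15 (SE). BECN1 encodes Beclin 1, a subunit of the lipid kinase complex. It measured 40.3, 38.6, 40.6 and 37.3 FPKM in control and 39.3, 40.8, 39.8 and 36.9 FPKM in estradiol libraries. This was the steadiest of the 10 genes, with a coefficient of variation of 3.77% over the 8 libraries, and neither group was set apart. Its means were 39.2 ± 1.54 and 39.2 ± 1.66 FPKM (SD, n = 4 each), and its log2 fold change was -8.46e-05 ± 0.078 (SE).

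WIPI1 binds the phosphoinositide that the BECN1 complex makes. Its level was 36.4, 38.0, 33.0 and 38.9 FPKM in control and 35.7, 38.7, 38.9 and 31.9 FPKM in estradiol libraries. The same 2 libraries were again lowest, while the other 6 lay between 35.7 and 38.9 FPKM. Group means were 36.6 ± 2.60 and 36.3 ± 3.27 FPKM (SD, n = 4 each; log2 fold change -0.013 ± 0.096 SE). ATG5 is joined to ATG12 in the complex that attaches Atg8 proteins to lipid. It measured 15.1, 16.3, 22.1 and 14.4 FPKM in control and 15.8, 14.5, 17.0 and 22.5 FPKM in estradiol libraries. Here control replicate 3 and estradiol replicate 4 were the highest, and the other 6 stayed between 14.4 and 17.0 FPKM. The means were 16.9 ± 3.51 and 17.4 ± 3.53 FPKM (SD, n = 4 each), with a log2 fold change of 0.040 ± 0.16 (SE).

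MAP1LC3B encodes LC3B, the Atg8 protein most used to mark autophagosomes. It measured 237, 251, 305 and 245 FPKM in control and 244, 226, 264 and 320.4 FPKM in estradiol libraries. The 2 libraries that stood apart were the highest, and the remaining control and estradiol libraries overlapped. Means were 259 ± 30.8 and 264 ± 40.8 FPKM (SD, n = 4 each; log2 fold change 0.018 ± 0.13 SE). MAP1LC3B2, a near-identical copy, was listed at 11.4 to 14.1 FPKM, so the split of reads between them is uncertain.

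GABARAP, a further Atg8 protein, measured 105, 112, 94.1 and 119 FPKM in control and 109, 116, 126 and 86.8 FPKM in estradiol libraries. In contrast to MAP1LC3B, the lowest values were those of control replicate 3 and estradiol replicate 4. Means were 108 ± 10.8 and 109 ± 16.6 FPKM (SD, n = 4 each; log2 fold change 0.013 ± 0.13 SE). GABARAPL1 stood at 92.3, 101, 99.2 and 105 FPKM in control and 99.1, 102, 104 and 99.2 FPKM in estradiol libraries. The libraries that stood apart lay inside the range of the others, and control replicate 1 was the lowest. Means were 99.4 ± 5.33 and 101 ± 2.43 FPKM (SD, n = 4 each; log2 fold change 0.025 ± 0.078 SE). GABARAPL2, also called GATE-16, stood at 58.6, 54.9, 63.8 and 58.8 FPKM in control and 59.2, 49.2, 55.0 and 64.7 FPKM in estradiol libraries. Estradiol replicate 2 was the lowest, and control replicate 3 and estradiol replicate 4 the highest. Means were 59.0 ± 3.66 and 57.0 ± 6.58 FPKM (SD, n = 4 each), and the log2 fold change of -0.054 ± 0.10 (SE) was the lowest of the 10.

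SQSTM1, the cargo receptor p62, was the most abundant of the 10 transcripts. Its level was 989, 882, 659.8 and 891 FPKM in control and 958, 939.8, 886 and 709 FPKM in estradiol libraries. Control replicate 3 and estradiol replicate 4 were the lowest, and the other 6 lay between 882 and 989 FPKM. Group means were 855 ± 139 and 873 ± 113 FPKM (SD, n = 4 each; log2 fold change 0.035 ± 0.14 SE). TFEB was the least abundant, at 1.17, 1.08, 0.621 and 1.00 FPKM in control and 1.20, 0.910, 1.09 and 0.976 FPKM in estradiol libraries. Control replicate 3 was the lowest, and estradiol replicate 4 lay within the range of the others. The means were 0.970 ± 0.242 and 1.04 ± 0.128 FPKM (SD, n = 4 each), with a log2 fold change of 0.060 ± 0.10 (SE). At this level a pseudocount of 1 understates a change: the value was 0.12 with a pseudocount of 0.1 and 0.14 by limma-voom on recovered reads, neither of which passed. Without the 2 libraries that stood apart it was -0.015.

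**Figure D2:**
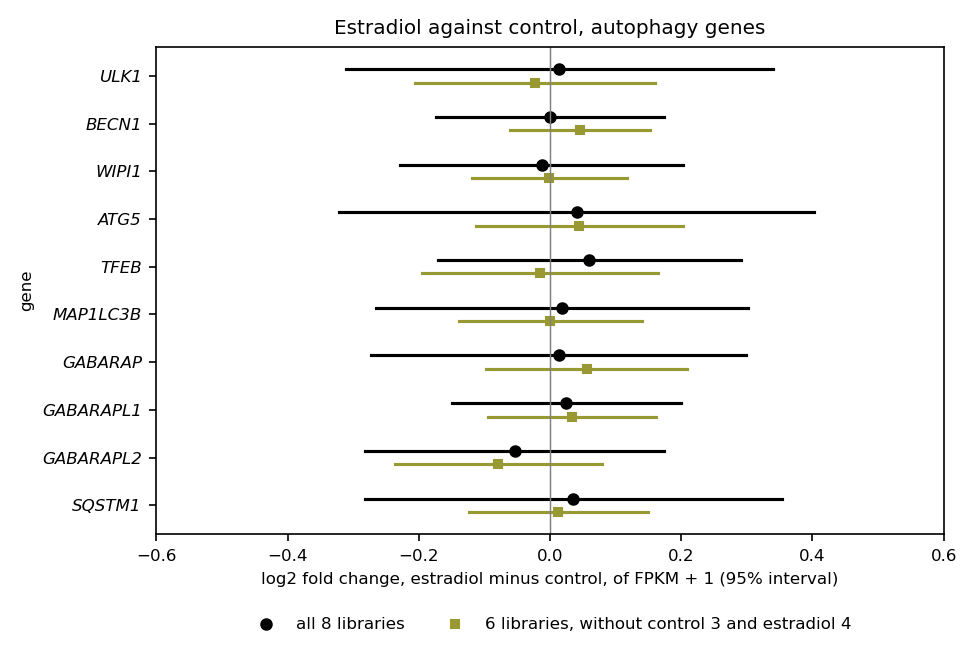
Log2 fold change of FPKM + 1, estradiol minus control, with its 95% interval (horizontal axis) for each autophagy gene (vertical axis), from 8 libraries (black circles) and from 6 libraries without control replicate 3 and estradiol replicate 4 (olive squares). The 10 intervals include 0 in both fits and are narrower in the fit to 6 libraries.

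Counting error was below the spread over the 8 libraries for 10 of the 10 genes. SQSTM1 rested on 80776 to 126877 recovered reads per library and MAP1LC3B on 16244 to 26677, with a counting error of at most 0.352% and 0.785%, against coefficients of variation of 13.6% and 12.8% over the 8 libraries. TFEB rested on 85 to 172 reads, with a counting error of up to 10.8% against a coefficient of variation of 18.3%. These errors cover counting only.

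In order of mean level over the 8 libraries, SQSTM1 (864 FPKM) was followed by MAP1LC3B (261), GABARAP (109), GABARAPL1 (100.3), GABARAPL2 (58.0), BECN1 (39.2), WIPI1 (36.4), ATG5 (17.2), ULK1 (9.95) and TFEB (1.01). Of the 9 pairs of neighbours in this order, 7 had ranges that did not overlap. GABARAP and GABARAPL1 overlapped, with GABARAP higher in 6 of 8 libraries, as did BECN1 and WIPI1, with BECN1 higher in 7 of 8. The exceptions were libraries in which GABARAP stood at 94.1 and 86.8 FPKM (control replicate 3 and estradiol replicate 4) and, for BECN1, control replicate 4.

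The 2 libraries that stood apart did not deviate alike for all of the 10 genes. Both lay below the other 6 for 4 genes (SQSTM1, ULK1, GABARAP and WIPI1) and above them for 3 (MAP1LC3B, ATG5 and GABARAPL2), where the background was 43.9% below and 34.6% above among all genes tested. For GABARAPL1, BECN1 and TFEB they were neither both below nor both above. This split is near that background and is not a trait of the 10 genes. On the log2(FPKM + 1) scale, control replicate 3 and estradiol replicate 4 deviated from the median of the 8 libraries by 0.44 and 0.47 for ATG5, whose longest annotated transcript is 38.8% G and C. For MAP1LC3B (50.4% GC) the deviations were 0.30 and 0.37. They were -0.43 and -0.32 for SQSTM1 (58.0% GC), -0.40 and -0.28 for ULK1 (64.2% GC) and -0.23 and -0.35 for GABARAP (49.8% GC). MAP1LC3B and GABARAP deviated in opposite directions, with nearly the same GC content in their longest annotated transcripts, which may not be the transcripts that were counted. Across the 10 genes, which share the same libraries, the mean deviation of the pair had a Pearson correlation with GC content of -0.748, and across the 103 tested genes of a wider autophagy list of -0.871. The background, over 10250 genes of all kinds, was -0.850, so the relation is not particular to autophagy genes. What set these 2 libraries apart was not tested.

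**Figure D3:**
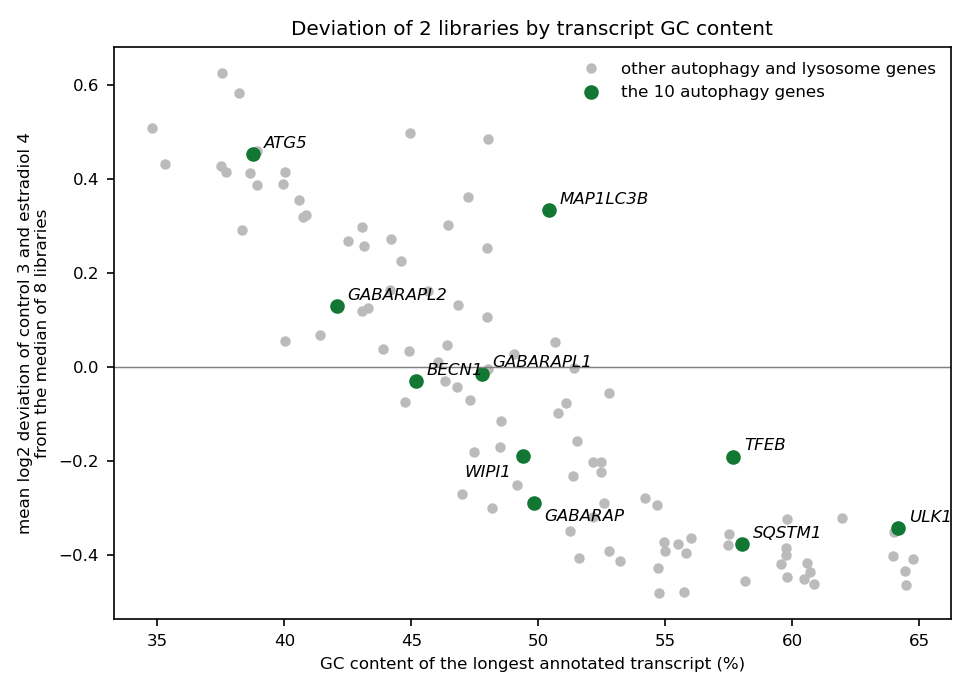
Mean log2 deviation of control replicate 3 and estradiol replicate 4 from the median of the 8 libraries (vertical axis) against transcript GC content in percent (horizontal axis), for the 10 autophagy genes (green, named) and the other tested autophagy and lysosome genes (grey). ATG5 at 38.8% GC lies above 0 and ULK1 at 64.2% below it, and MAP1LC3B at 50.4% lies above most genes of like GC content.

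Without this pair the 3 control and 3 estradiol libraries lay closer together. The coefficient of variation went from 19.0% over 8 libraries to 6.69% over 6 for ATG5, from 15.6% to 8.31% for ULK1, from 13.6% to 4.81% for SQSTM1 and from 12.8% to 5.17% for MAP1LC3B. It was lower for 9 of the 10 genes, the exception being GABARAPL1 (3.93% and 4.57%). The pair was picked because it stood apart in these same data, so a lower spread without it follows in part from that choice. Over all genes tested, the median standard error of the log2 fold change fell from 0.125 to 0.0646 without this pair. Mean SQSTM1 was then 921 FPKM in control and 928 FPKM in estradiol libraries, mean MAP1LC3B 244 and 245 FPKM, mean ULK1 10.8 and 10.6 FPKM and mean ATG5 15.2 and 15.8 FPKM. The 10 log2 fold changes ran from -0.08 for GABARAPL2 to 0.06 for GABARAP, and none passed (smallest adjusted p by limma 0.992).

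With each library's trend over GC content removed, the standard error of the log2 fold change was smaller for 9 of the 10 genes. The median standard error over all genes tested also fell, from 0.125 to 0.0579. For SQSTM1 it went from 0.142 to 0.0463, for ULK1 from 0.146 to 0.0346 and for ATG5 from 0.162 to 0.0493. MAP1LC3B was the exception, from 0.127 to 0.159. The authors' length for MAP1LC3B, recovered from the FPKM steps, was 2147 bases. The GC content used here is that of a longer GENCODE transcript, which may not be the transcript that was counted. No such comparison is given for the other 9 genes, and whether it bears on the standard error was not tested. The log2 fold changes after removal were 0.054 for SQSTM1, 0.050 for ULK1, 0.029 for ATG5 and 0.018 for MAP1LC3B, and none of the 10 genes passed (smallest adjusted p by limma 0.999).

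SQSTM1 and MAP1LC3B are often read side by side in work on autophagy. The ratio of SQSTM1 to MAP1LC3B, both in FPKM, was 4.18, 3.52, 2.17 and 3.63 in control and 3.92, 4.15, 3.36 and 2.21 in estradiol libraries. The 2 lowest ratios were those of control replicate 3 and estradiol replicate 4, with 1 in each group, and the other 6 libraries ranged from 3.36 to 4.18. The means of 3.37 ± 0.855 and 3.41 ± 0.866 (SD, n = 4 each) did not differ beyond that spread (exact two-sided permutation p = 0.943; adjusted p = 0.971 over 10 such ratios and shares).

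Within the Atg8 family, MAP1LC3B supplied 46.8 ± 3.68% of the summed FPKM without and 47.1 ± 4.64% with estradiol (n = 4 each, ± SD; p = 0.943, exact permutation test). GABARAP supplied 19.5 ± 2.35% and 19.7 ± 3.54%, GABARAPL1 18.0 ± 0.835% and 18.2 ± 1.21%, and GABARAPL2 10.7 ± 0.499% and 10.2 ± 0.827%. MAP1LC3A and MAP1LC3B2 supplied the rest, with MAP1LC3C at or under 0.00575% in each library. In control replicate 3 and estradiol replicate 4 MAP1LC3B took 52.2% and 53.9%, where its share elsewhere was 43.5% to 45.7%. GABARAP took 16.1% and 14.6% there, and 20.1% to 22.4% elsewhere. The family's summed level was 553 ± 24.6 and 558 ± 34.1 FPKM (n = 4 each, ± SD; p = 0.857, exact permutation test). None of the 10 ratios and shares passed after adjustment (adjusted p = 0.971 for each; exact permutation test).

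**Figure D4:**
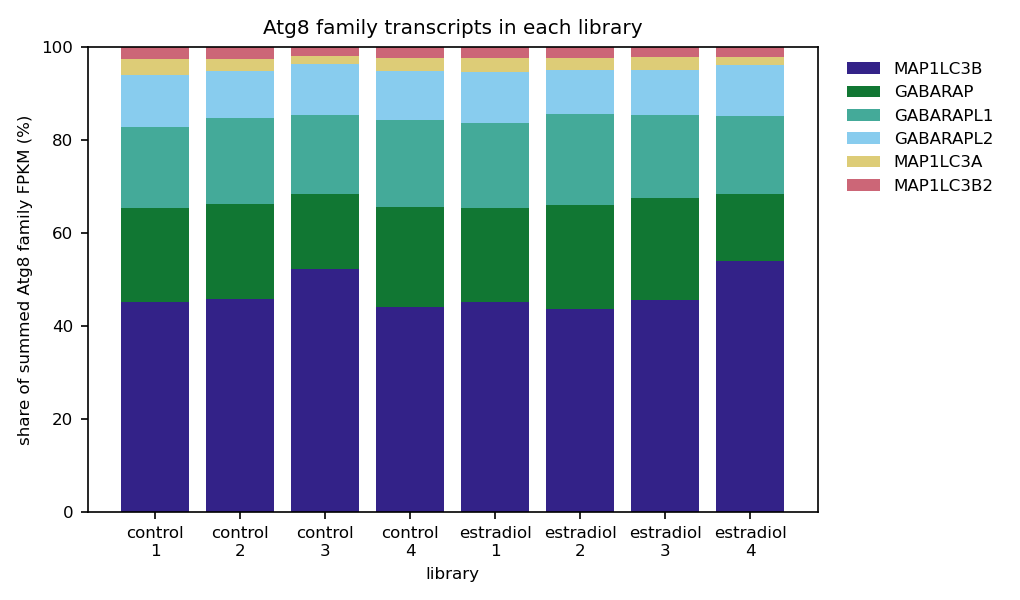
Share of the summed FPKM of the Atg8 family (vertical axis, percent) taken by each member in each library (horizontal axis), with MAP1LC3C, at or under 0.00575%, not drawn. MAP1LC3B takes 43.5% to 45.7% in 6 libraries and 52.2% and 53.9% in control replicate 3 and estradiol replicate 4.

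The wider pathway was read from a list of 108 genes by role, of which 107 were in the table and 103 were tested. By limma 0 passed in either direction, under each alternative too, and 0 had an unadjusted p under 0.05 (background 0.243%). Without control replicate 3 and estradiol replicate 4, 3 of the 103 had an unadjusted p under 0.05, where the background was 3.88% of all genes tested. There were 2 with the GC trend removed (background 2.49%), 2 with a term for the pair (3.27%), 2 without control replicate 3 alone (1.71%), 5 with array weights (8.28%) and 0 under each of the other 14 alternatives. Values were above 0 for 54 and below 0 for 49, with a median log2 fold change of 0.0021 and a highest value of 0.14. By role, values above 0 were 4 of 5 for initiation, 5 of 8 for nucleation, 3 of 9 for membrane supply, 5 of 9 for conjugation, 3 of 6 for the Atg8 family, 7 of 12 for cargo receptors, 4 of 6 for transcription factors, 10 of 15 for nutrient sensing, 8 of 13 for fusion with the lysosome and 5 of 20 for the lysosome. Among all genes tested 49.5% were above 0. The lysosome genes had the lowest median, -0.032. Both libraries that stood apart lay below the other 6 for 13 of these 20 genes (background 43.9%) and above for 5 (background 34.6%); their part in that median was not tested.

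Among genes other than the 10, those with the smallest unadjusted p of their role did not pass either. ATG101, a subunit of the ULK1 complex, averaged 43.5 ± 4.88 FPKM without and 45.7 ± 9.59 FPKM with estradiol, and PIK3R4, the regulatory subunit of the BECN1 complex, 5.57 ± 0.495 and 5.71 ± 0.0461 (SD, n = 4 each). ATG9A, a membrane protein of autophagosome growth, measured 30.5 ± 5.34 and 28.9 ± 4.07 FPKM, and ATG7, the activating enzyme of Atg8 conjugation, 3.16 ± 0.141 and 3.40 ± 0.333. FUNDC1, a receptor for mitochondria, stood at 8.0 ± 1.15 and 8.96 ± 1.51 FPKM, with a log2 fold change of 0.14 ± 0.13 (SE), the highest of the list. ZKSCAN3, a repressor of autophagy genes, stood at 1.44 ± 0.0619 and 1.60 ± 0.116 FPKM and had the smallest unadjusted p of the list by limma (0.24). RHEB, the GTPase that activates mTORC1, stood at 46.0 ± 5.75 and 48.5 ± 4.95 FPKM, and EPG5, a tether for fusion, at 6.66 ± 0.434 and 7.05 ± 0.342. In the Atg8 family the gene was MAP1LC3B2, at 13.1 ± 1.16 and 12.6 ± 0.399 FPKM.

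**Figure D5:**
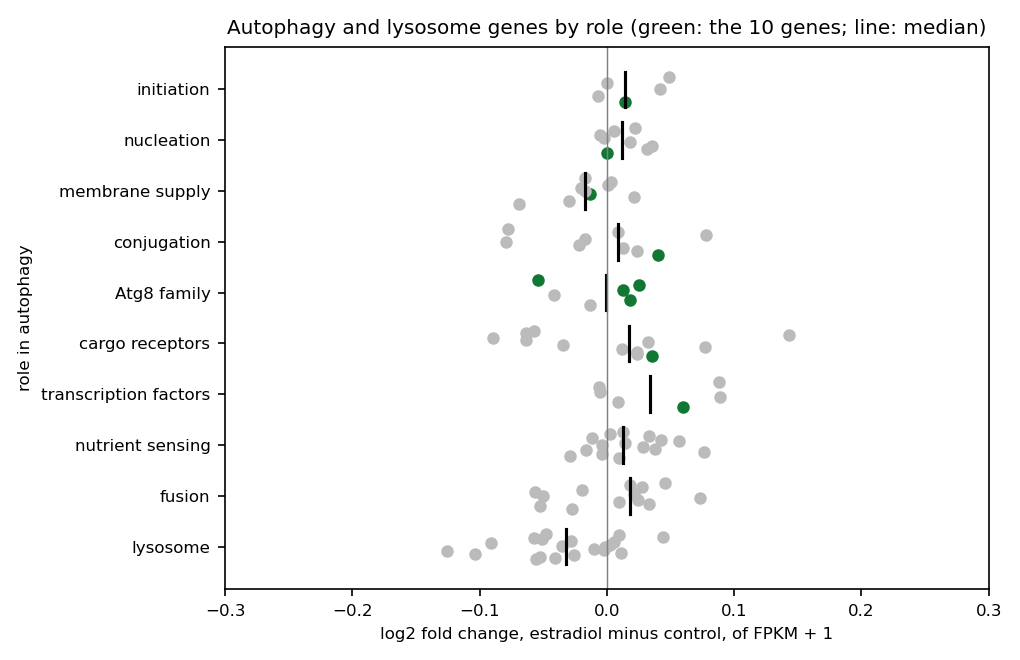
Log2 fold change of FPKM + 1, estradiol minus control (horizontal axis), for the tested autophagy and lysosome genes by role (vertical axis), with the 10 genes in green and the median of each role as a black line. The highest value is 0.14 (FUNDC1), and the medians run from -0.032 (lysosome) to 0.034 (transcription factors).

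By likeness of level over the 8 libraries, the genes closest to SQSTM1 were SLC39A13, DNTTIP1 and PPP5C, with Pearson correlations of 0.998, 0.997 and 0.997 (0.980, 0.985 and 0.971 over the 6 libraries without the pair). Those closest to TFEB were RGS16, RFX2 and VSIR, at 0.979, 0.970 and 0.968 (0.930, 0.947 and 0.864 over the 6). These are descriptions, chosen as the highest among all tested genes, and have no test. The transcripts of these 6 genes are 53.4% to 62.8% G and C, as those of SQSTM1 and TFEB are 58.0% and 57.7%.

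RefSeq promoter sequences on GRCh38.p14 were found for 10 of the 10 genes, as 15 windows of the 250 bases before a start site. They were searched on both strands for the palindromic motif of estrogen receptors (AGGTCA and TGACCT with any 3 bases between them), its half-site (AGGTCA, contained in the full motif) and the core of the TFEB motif (CACGTG). The full motif was in 0 of 15 windows and in 1 of 35116 promoters. CACGTG was in 0 of 15 windows, where 6.34% of all promoters hold it, and the half-site was in 2 of 15, where 12.1% of all promoters hold it. The matches, in capitals within 30 bases of the gene's strand, are shown because estradiol is the agent compared.
SQSTM1, plus strand, chr5:179806177-179806206: ccgggacctctgTGACCTtgggtctctgcc
BECN1, minus strand, chr17:42823913-42823942: accccgggccggAGGTCAagggcgtcgctt
The match began 204 bases before 1 of the SQSTM1 start sites and 51 bases before the BECN1 start site. For SQSTM1 the half-site AGGTCA lies on the strand opposite the gene's, so the gene's strand reads TGACCT. A match is a description of the letters and not a binding site.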

How the data were processed

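RNA of 8 TeloHAEC libraries was sequenced, and groups and replicate numbers came from the sample titles; the treatment field, which reads Control for controls and PA-supplied for estradiol samples, was not used. The authors deposited FPKM values for each gene and library. The submitters' processing notes name fastp 0.20.1 and HTSeq, per the labels; the aligner, genome build, annotation and strand setting were not given in the sources used. Whole reads were recovered from the FPKM steps for 100% of the 152348 values above 0 (relative tolerance 1e-06), which gave the depths and read numbers. limma 3.58.1 (R 4.3.3) with a mean-variance trend was fitted to log2(FPKM + 1) for the 10720 genes with a mean of at least 1 FPKM, two-sided, and genes were called at a Benjamini-Hochberg adjusted p under 0.05; the same genes were tested when libraries were left out. Fold changes on this scale understate those of low genes. Ratios and shares were compared with exact permutation tests over 70 relabellings, whose smallest p is 0.0286. GC content is that of the longest GENCODE 29 transcript by gene name (95.6% of genes tested), and its trend was removed by lowess (span 0.3). On simulated data for this comparison with 10720 genes, 50 changed at each size, the test found 8% of the 1.25-fold changes, 42% at 1.5-fold, 86% at 2-fold and 100% at 3-fold, and made 3 false calls. The simulated noise was drawn independently for each gene, without the shift shared by the libraries that stood apart. Changes were placed in genes of middle level, a range without TFEB and SQSTM1. These shares may therefore not hold for the measured libraries or for those 2 genes. The 10 genes, the wider list and the alternatives were chosen with earlier results of these data known. Beside the 10 genes, each role contributes at most 4 genes that passed or, if none did, the gene with the smallest unadjusted p, and SQSTM1 and TFEB contribute the 3 genes most like each. The gene so named for the lysosome role is not reported here. Other steps ran in Python 3.11.15, with scipy 1.17.1 for tests, pandas 2.3.3 and numpy 2.4.6 for tables, and matplotlib 3.10.9 for figures. Alternatives were another pseudocount (0.1), no filter and a filter at 5 FPKM, 2 other scalings, the GC trend removed, limma-voom on recovered reads, array weights, a block for the replicate number, the pair of libraries that stood apart left out or given a term, and each library left out.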

Additional observations from a re-analysis of the deposited data

How the results depend on the processing

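Under each of the 19 alternatives 0 genes passed in all, and thus 0 of the 10 (limma; smallest adjusted p of the 10 genes 0.791). Genes at an unadjusted p under 0.05 numbered 4 (filter at 5 FPKM, where TFEB was not tested) to 888 (array weights), against 26. The signs of the 10 log2 fold changes were not stable. With array weights they were -0.022 for MAP1LC3B, 0.046 for BECN1 and -0.0050 for ATG5. BECN1 stood at 0.0027 with median-of-ratios scaling and 0.00031 with a common total. Without control replicate 3 and estradiol replicate 4 together, BECN1 stood at 0.045, ULK1 at -0.023 and TFEB at -0.015. Leaving out 1 library at a time gave SQSTM1 -0.084 to 0.132, MAP1LC3B -0.079 to 0.098, GABARAP -0.058 to 0.119, GABARAPL1 -0.010 to 0.051, GABARAPL2 -0.116 to 0.014, BECN1 -0.023 to 0.028, ULK1 -0.107 to 0.107, ATG5 -0.083 to 0.167, WIPI1 -0.060 to 0.046, TFEB -0.031 to 0.110, ATG101 -0.038 to 0.205, PIK3R4 -0.015 to 0.073 and ATG9A -0.202 to 0.033. The median of the 10 ranged from -0.024 (without control replicate 3) to 0.040 (without estradiol replicate 4), against 0.016. The cause of these shifts was not tested. Each library, left out, turned the sign of at least 1 of the 10. With the replicate block 0 genes passed, 11 had an unadjusted p under 0.05 and the median of the 10 stayed 0.016. Same-numbered libraries had correlations of 0.616, 0.0728, -0.478 and -0.737 in their deviations. Control replicate 3 and estradiol replicate 4, which stood apart, carry different numbers and weigh on these values. The correlations therefore cannot tell whether same-numbered libraries were paired. Depth limits TFEB most, at 85 to 172 reads.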

Other observations

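In the wider list 4 genes were under the filter of 1 FPKM and were not tested. ATG10, an enzyme of the ATG12 conjugation step, ranged from 0.290 to 0.528 FPKM over the 8 libraries, RETREG1, a receptor for the endoplasmic reticulum, from 0.523 to 0.891, RRAGD, a GTPase of the lysosomal surface, from 0.201 to 0.325, and MAP1LC3C, an Atg8 protein, from 0 to 0.0336.

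Within the 6 libraries other than control replicate 3 and estradiol replicate 4, SQSTM1 and ULK1 had the highest Pearson correlation of the 45 pairs among the 10 genes (Pearson r = 0.970, exact permutation p = 0.00278, adjusted p = 0.125; Spearman rho = 0.943, exact permutation p = 0.0167, adjusted p = 0.25; n = 6). Without the 2 of these 6 libraries farthest from the median of SQSTM1, r was 0.878. It was higher for GABARAP and GABARAPL1 (0.973), GABARAP and WIPI1 (0.923) and GABARAPL1 and WIPI1 (0.921). For each pair, the 2 libraries left out were those farthest from the median of its first-named gene. So few libraries remain that these values cannot rank the pairs. The rho of 0.943 was shared by GABARAP with GABARAPL1 and by GABARAPL1 with WIPI1. Of the 45 pairs, 7 had an exact permutation p under 0.05 for Pearson's r and 0 passed after adjustment. The share among pairs of all genes tested was not computed, so these 7 cannot be read as a trait of the autophagy genes. These 6 libraries hold 3 of each group. Their deviations had rank correlations with transcript GC content from -0.342 (estradiol replicate 3) to 0.654 (control replicate 4). Of the 10 genes, ULK1 (64.2% GC) and SQSTM1 (58.0% GC) have the highest GC content. Whether GC content bears on their correlation was not tested.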
